A study of Chlorocebus sabaeus with 45 samples.

Results

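The natural killer (NK) cell receptor genes described here are the lectin-like receptors KLRB1, KLRD1, KLRF1, KLRG1 and KLRK1, the natural cytotoxicity receptors NCR1 and NCR3, and the surface molecules CD226 and NCAM1. They were chosen by name, with earlier results of these data known, and are 9 genes of the 33994 rows in each sample's table. A row with the symbol was found for 7 of them. KLRK1 was read from the row LOC103218581, which carries the gene ID that RefSeq gives to vervet KLRK1, and NCR3 is not analysed here. The 8 genes with a row were all tested, among 18753 genes with more than 0.5 CPM, a fragment number relative to the library total, in 3 or more samples. Whole blood RNA was sequenced from 15 juvenile male vervets (Chlorocebus sabaeus) born in the wild on St. Kitts, 1 from each troop. Each animal gave a sample on day 0, in the field straight after trapping and under ketamine and xylazine, and again on day 3 and day 14 of quarantine, housed alone and under dexmedetomidine and midazolam. The comparison asks how the blood transcriptome differed within an animal after relocation and isolation, and day 0 differs from both later days also in place and sedation, which cannot be told apart from the time since capture.

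NK cells kill infected or transformed cells without prior priming, and the balance of inhibitory and activating surface receptors decides whether they do so. The lectin-like receptors are encoded together in the NK gene complex, and many of them, like CD226, are also carried by cytotoxic T cells. KLRD1 (CD94) pairs with NKG2 proteins to read the nonclassical MHC molecule HLA-E. NCR1 (NKp46) is an activating receptor found on nearly all NK cells. In whole blood, fewer cells of a type and less RNA per cell cannot be told apart.

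The libraries held from 13216275 to 31469332 fragments on genes, and these totals did not differ detectably between days (two-sided exact sign-flip permutation test over 15 animals, p = 0.406 for day 3 vs. day 0 and p = 0.346 for day 14 vs. day 0). By the same exact permutation test the number of genes above 0 was lower on day 3 than on day 0, with a mean difference of −1490 (p = 0.0341, 3 of 15 animals higher), and did not pass on day 14 (−1910, p = 0.117, 3 of 15 higher). The RNA integrity number given by the study was higher on the later days than on day 0 in most animals, and its part in the changes below was not tested apart from a fit with it as a covariate. The day 14 library of animal 4 and the day 0 library of animal 9 stood apart, with 31402 and 30752 genes above 0 where no other library exceeded 26792. The levels given below are FPKM (fragments per gene length and library total) after scaling between libraries with trimmed means of M values (TMM), and called scaled FPKM. Changes are log2 fold changes of scaled FPKM + 0.1 from limma with the animal as a block, with p-values adjusted by Benjamini-Hochberg over all 18753 genes and called below 0.05. The NK cell genes KLRD1, KLRF1, NCR1, NKG7, PRF1 and GNLY were above 0 in 45 of 45 samples, GNLY with as few as 13 fragments and the other 5 with at least 125.

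KLRK1 was the most abundant of the 8 genes, with a mean of 106 scaled FPKM over the 45 samples, followed by KLRD1 (57.0), KLRF1 (38.1), CD226 (19.6), KLRG1 (14.4), NCR1 (9.9), KLRB1 (2.88) and NCAM1 (0.184). The first 3 kept this order in 45 of 45 samples, and KLRB1 exceeded NCAM1 in all 45. The middle of the order was looser. KLRF1 exceeded CD226 in 10 of 15 samples on day 0 and in 15 of 15 on day 14, CD226 exceeded KLRG1 in 15, 14 and 11 of 15 samples on days 0, 3 and 14, and KLRG1 exceeded NCR1 in 11, 12 and 13. NCAM1 (CD56), the usual human NK cell marker, rested on only 5 to 76 fragments per sample, and KLRB1 on 6 to 302.

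On day 14 vs. day 0, 4 of the 8 genes were up-regulated and none was down-regulated, where 23.2% of all tested genes were called up and 21.1% down. The 4 were the lectin-like receptors KLRD1, KLRB1, KLRG1 and KLRF1, with rises of between 1.78-fold and 2.5-fold. The median log2 fold change of the 8 genes was 0.64, and that of all tested genes was −0.02. KLRK1, NCR1, CD226 and NCAM1 did not pass the test.

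KLRD1 ranged from 16.1 through a median of 33.3 to 77.2 scaled FPKM on day 0, from 25.9 through 52.9 to 94.8 on day 3, and from 46.6 through 83.0 to 176 on day 14. The days overlapped, but 9 of 15 animals on day 14 lay above the highest day 0 sample and 15 of 15 above the day 0 median. The rise from day 0 to day 14 was 2.2-fold (95% confidence interval 1.79 to 2.7) with a log2 fold change of 1.14 (standard error 0.15, limma adjusted p = 5.89e-07), and it was seen in 14 of 15 animals.

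KLRB1 (CD161), which binds the lectin CLEC2D, ranged from 0.27 through 1.78 to 6.53 scaled FPKM on day 0, from 0.567 through 1.84 to 5.64 on day 3, and from 1.04 through 3.45 to 13 on day 14. The days overlapped widely and 3 animals on day 14 exceeded the day 0 maximum, but 15 of 15 animals were higher on day 14 than on their own day 0. The log2 fold change was 1.14 (standard error 0.22, limma adjusted p = 0.000111), a 2.2-fold rise with an interval of 1.61 to 3.01.

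KLRG1, an inhibitory receptor for cadherins that marks mature NK and effector T cells, ranged from 4.39 through 10.6 to 19.9 scaled FPKM on day 0, from 4.64 through 13.5 to 21.8 on day 3, and from 9.93 through 18.2 to 30.2 on day 14. On day 14, 14 of 15 animals lay above the day 0 median and 5 above the day 0 maximum. The log2 fold change was 0.83 (standard error 0.14, limma adjusted p = 1.67e-05), with 14 of 15 animals higher.

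KLRF1 (NKp80), an activating receptor for the lectin CLEC2B, ranged from 10.9 through 23.6 to 36.9 scaled FPKM on day 0, from 13.9 through 32.5 to 55.8 on day 3, and from 30.4 through 51.3 to 108 on day 14. These groups were the most nearly separate of the 8 genes, since 9 or fewer samples of any other gene on day 14 exceeded its day 0 maximum and 14 of 15 did so for KLRF1. The log2 fold change was 1.32 (standard error 0.18, limma adjusted p = 9.62e-07), a 2.5-fold rise with an interval of 1.95 to 3.22, and 15 of 15 animals were higher.

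KLRK1 (NKG2D), the activating receptor for MIC and ULBP proteins, ranged from 34.8 through 98.6 to 159 scaled FPKM on day 0, from 55.2 through 96.4 to 169 on day 3, and from 64.8 through 111 to 241 on day 14. The days overlapped almost completely, and 8 animals were higher on day 14 and 7 lower. The log2 fold change of 0.19 had an interval of −0.07 to 0.46 (limma adjusted p = 0.242). KLRK1 lies directly next to KLRD1 in the RefSeq annotation of the vervet genome. The change of KLRD1 exceeded that of KLRK1 in 15 of 15 animals, by 0.94 ± 0.47 on the log2 scale (SD, n = 15), a pair picked out after its values were seen and not tested.

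NCR1 ranged from 2.86 through 7.0 to 31.6 scaled FPKM on day 0, from 5.09 through 8.74 to 15.3 on day 3, and from 4.89 through 10.7 to 19.5 on day 14. Its median was thus higher on day 14 while its highest sample was on day 0. The log2 fold change was 0.44 with an interval of −0.00 to 0.88 (limma adjusted p = 0.0997), and 11 of 15 animals were higher. Without animal 11 or without animal 15 NCR1 was called up (adjusted p = 0.0336 and 0.0202), with log2 fold changes of 0.54 and 0.57. Animals 15 and 11 had the highest day 0 levels, 31.6 and 20.3 scaled FPKM, so leaving out either raises the estimate. Without TMM scaling the log2 fold change was 0.02 (limma adjusted p = 0.937).

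CD226 (DNAM-1), an activating receptor for PVR and nectin-2, was the steadiest of the 8 genes, with a coefficient of variation of 16.6% on day 0 and 20.7% on day 14. It ranged from 13.1 through 19.1 to 23.6 scaled FPKM on day 0, from 12.4 through 20.4 to 28.9 on day 3, and from 13.4 through 19.5 to 30.1 on day 14. The log2 fold change was 0.04, with a narrow interval of −0.13 to 0.22 (limma adjusted p = 0.722). NCAM1 had medians of 0.179, 0.168 and 0.189 scaled FPKM on days 0, 3 and 14 and a log2 fold change of 0.16 (interval −0.14 to 0.46, adjusted p = 0.394), a value pulled towards 0 by the added 0.1.

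These values are relative to the typical gene. In the FPKM as deposited, with no TMM scaling, the median of all tested genes on day 14 vs. day 0 was −0.36 and the calls split into 1741 up and 9334 down, where the scaled values gave 4343 up and 3957 down. KLRD1, KLRB1, KLRG1 and KLRF1 then still rose, by 0.71, 0.72, 0.41 and 0.90 on the log2 scale, and CD226 was called down at −0.38 (adjusted p = 0.0136), which is −0.02 relative to the median of all genes. KLRK1, NCR1 and NCAM1 stood at −0.23, 0.02 and −0.09 with no call. The counts of animals are of scaled values too, and the median TMM factor was 1.14 on day 0 and 0.789 on day 14. As deposited, KLRF1 fell from day 0 to day 14 in animals 3, 8, 9 and 12 and rose in the others. In animal 8 it went from 41.2 to 21.4 FPKM. KLRB1 as deposited fell in animals 3, 6 and 8 and rose in the others. With the RNA integrity number as a further term, the log2 fold changes were 0.87 for KLRD1 (limma adjusted p = 0.000741), 0.78 for KLRB1 (0.0388), 0.82 for KLRG1 (0.00164) and 1.12 for KLRF1 (0.000699).

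**Figure D1:**
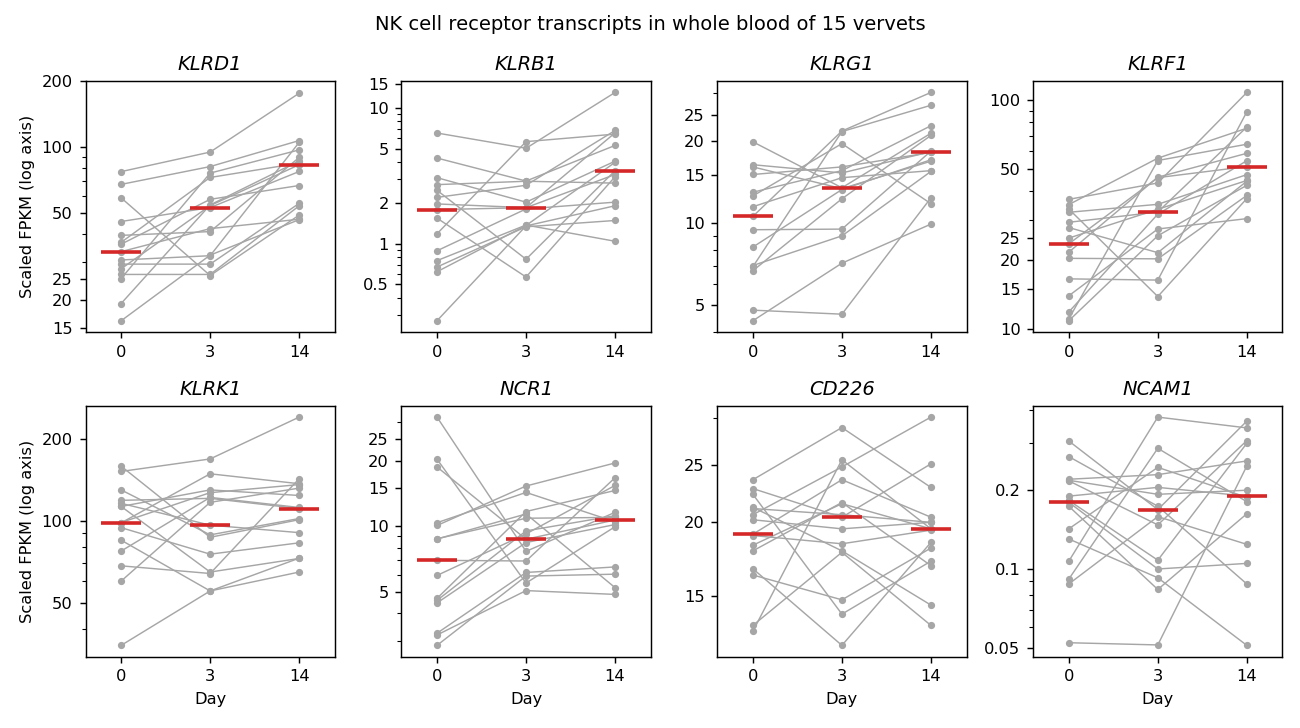
Scaled FPKM (log axis, its range differing between panels) of the 8 genes by day, with a grey line for each of 15 animals and a red bar at the median of the day. KLRD1 goes from a median of 33.3 on day 0 to 83.0 on day 14 and KLRF1 from 23.6 to 51.3, while CD226 lies between medians of 19.1 and 20.4.

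On day 3 vs. day 0, KLRD1 and KLRF1 were up-regulated and none of the 8 genes was down-regulated, where 10.3% of all tested genes were called up and 9.3% down. KLRD1 rose by a log2 fold change of 0.45 (standard error 0.15, limma adjusted p = 0.0275, 13 of 15 animals higher) and KLRF1 by 0.52 (standard error 0.18, adjusted p = 0.0351, 11 of 15 animals higher). KLRG1 had a log2 fold change of 0.38 and missed the threshold (adjusted p = 0.0538, 11 animals higher). For KLRB1 the value was 0.25 (adjusted p = 0.469), for NCR1 0.21 (0.537), for CD226 0.06 (0.659), for KLRK1 0.01 (0.981) and for NCAM1 0.00 (0.994). Animal 8 was the lowest and animal 7 the highest for KLRB1, KLRD1 and KLRF1, with KLRD1 changes of −1.17 and 1.60. The day 3 calls were fragile. Neither gene was called when animal 4, 7, 11, 14 or 15 was left out, KLRF1 was also lost without animal 1 or 10, and the adjusted p ranged from 0.00306 to 0.0782 for KLRD1 and from 0.00714 to 0.102 for KLRF1. Without the animal block they were 0.162 and 0.0861. Without TMM scaling they were 0.138 and 0.122, with log2 fold changes of 0.41 and 0.48. With the RNA integrity number as a further term they were 0.138 and 0.125, with log2 fold changes of 0.32 and 0.42. KLRG1 was called without animal 2, 3, 8 or 12, with an adjusted p as low as 0.0313.

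Between day 3 and day 14, both under the same housing and sedation, KLRB1, KLRF1, KLRD1 and KLRG1 rose and none of the 8 fell, where 14.2% of all tested genes were called up and 9.83% down. All 3 comparisons share samples with each other. KLRB1 rose by a log2 fold change of 0.89 (standard error 0.22, limma adjusted p = 0.00511, 13 of 15 animals higher). KLRF1 rose by 0.80 (standard error 0.18, adjusted p = 0.00215) and KLRD1 by 0.69 (standard error 0.15, adjusted p = 0.00152), each in 15 of 15 animals. KLRG1 rose by 0.46 (standard error 0.14, adjusted p = 0.0186, 14 of 15 animals higher). The others ranged from −0.02 for CD226 to 0.23 for NCR1, with adjusted p-values of at least 0.308. Without the animal block KLRB1 and KLRG1 lost their calls (adjusted p = 0.0682 and 0.115), and KLRG1 lost its call without animal 3 (0.0523) and with the RNA integrity number as a further term (0.0586). In the FPKM as deposited the median of all tested genes was −0.35, with 936 genes up and 8655 down where the scaled values gave 2662 and 1843. Of the 4 only KLRB1 was then called up (0.53, adjusted p = 0.0479), while KLRD1, KLRF1 and KLRG1 stood at 0.30, 0.42 and 0.08, and CD226 was called down at −0.40 (adjusted p = 0.0123). The counts of animals are again of scaled values. As deposited, KLRD1 fell in animals 8, 10, 12, 14 and 15 and rose in the others.

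**Figure D2:**
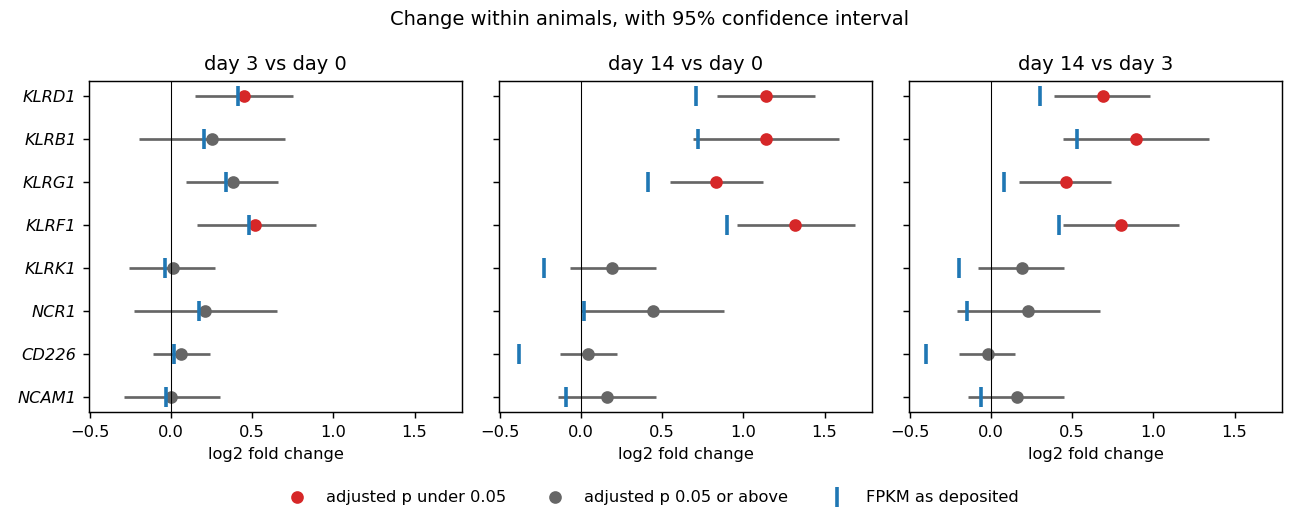
Log2 fold change (x axis) of each gene in the 3 comparisons, as points with 95% confidence intervals from the scaled values, red where called, and as blue ticks from the FPKM as deposited. KLRD1, KLRB1, KLRG1 and KLRF1 lie between 0.83 and 1.32 on day 14 vs. day 0, and the blue ticks lie to the left of the points wherever day 14 is compared.

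The scaled values of the animals differed in how far these genes moved, with 1 library per animal and day. All 4 called genes were higher on day 14 than on day 0 in 13 of 15 animals and 3 of 4 in animals 6 and 8. The 4 changes ranged from 1.95 to 2.52 in animal 7, from 1.64 to 2.50 in animal 14 and from 1.16 to 2.43 in animal 15. In animal 8 they ranged from −0.26 to 0.46, and in animal 6 from −0.10 to 0.83. The day 0 level enters each change. Animals 15, 14 and 7 had the lowest KLRD1 levels on day 0, at 16.1, 19.3 and 25.1 scaled FPKM, and animal 8 had 58.6. Differences in response between animals were not tested. Differences between animals persisted over the days for some genes. After removal of the day means, the animal accounted for a share of 0.56 of the variance in KLRB1 and 0.51 in KLRD1, KLRG1 and KLRK1, where the median of all tested genes was 0.22. The share was 0.36 for CD226, 0.28 for NCR1, 0.22 for KLRF1 and 0.18 for NCAM1. Animal 2 had the highest KLRD1 level on all 3 days.

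Several of the 8 genes varied together between samples. Over 45 samples from 15 animals, with the day means removed, Pearson's r on the log2 scale was 0.89 between KLRD1 and KLRF1, 0.77 between KLRD1 and KLRK1, 0.66 between KLRD1 and KLRG1, and 0.59 between KLRB1 and KLRF1. CD226, which was called in none of the 3 comparisons of scaled values, had an r of 0.63 with both KLRD1 and KLRK1. NCR1 stood apart from the lectin-like genes, with r between −0.23 and 0.21, and NCAM1 had r between −0.30 and 0.14 with the other 7. These values are descriptions, since samples of an animal are not independent and all genes share their library's depth.

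**Figure D3:**
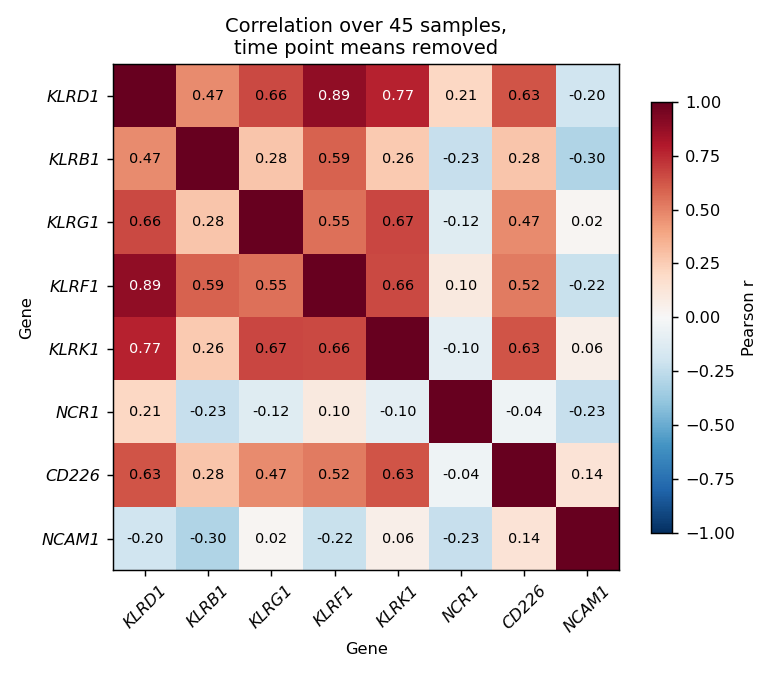
Pearson's r (color scale and printed values) between the log2 levels of each pair of the 8 genes over 45 samples after removal of the mean of each day. KLRD1, KLRF1, KLRG1, KLRK1 and CD226 form a block of values from 0.47 to 0.89, with KLRB1, NCR1 and NCAM1 outside it. KLRB1 has values of 0.47 and 0.59 with KLRD1 and KLRF1, and of 0.26 to 0.28 with KLRG1, KLRK1 and CD226.

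The genes whose log2 levels over the 45 samples were most like those of each receptor were ranked by Pearson's r. For KLRD1 they were GZMK (r = 0.93), the granzyme of early effector cells, the death ligand FASLG (0.91) and SAMD3 (0.90). For KLRF1 they were ENPP4 (0.89), GZMK (0.87) and SAMD3 (0.87), and for KLRG1 GPR34 (0.80), GZMK (0.79) and the chemokine receptor CXCR6 (0.79). KLRB1 had GLRX3 (0.71), FAM35A (0.71) and GALNT1 (0.70). KLRK1 was most like the transcription factors RORA (0.81) and EOMES (0.81), then ZNF75D (0.79). NCR1 was most like CD244 (0.89), a receptor shared by NK cells, T cells and myeloid cells, then SMPDL3A (0.78) and PRDM1 (0.72). CD226 had KIF2A (0.73), VPS13A (0.64) and FRMD4B (0.63), and no gene exceeded 0.42 for NCAM1.

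On day 0 the level of NCR1 went with those of both 12 neutrophil markers and 10 monocyte markers. The mean log2 level of the neutrophil markers was highest in animals 15, 7 and 11, at 8.47, 8.16 and 8.1, and at most 7.08 in the other 12. NCR1 stood at 31.6, 18.7 and 20.3 scaled FPKM in these 3 animals and at no more than 10.4 in any other. Over the 15 day 0 samples Pearson's r between NCR1 and the marker level was 0.89 and Spearman's rho 0.73, and r was 0.80 without animals 7 and 15, which lay farthest from the median of the markers. With the mean log2 level of the monocyte markers r was 0.90 on day 0. The relation was picked out after the values were seen, and whether NCR1 transcripts came from cells other than NK cells was not tested. For KLRK1 the day 0 r with the neutrophil markers was −0.58 and for KLRB1 −0.53, and without animals 7 and 15 they were −0.26 and −0.32. With the monocyte markers they were −0.73 and −0.67. KLRK1 and KLRD1 were lowest in animal 15, at 34.8 and 16.1 scaled FPKM. For KLRD1, however, the day 0 r with the neutrophil markers was −0.24, and 0.19 without animals 7 and 15. With the day means removed, r of NCR1 over all 45 samples was 0.60 with the neutrophil markers, 0.63 with the monocyte markers and −0.57 with the 12 T cell markers.

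**Figure D4:**
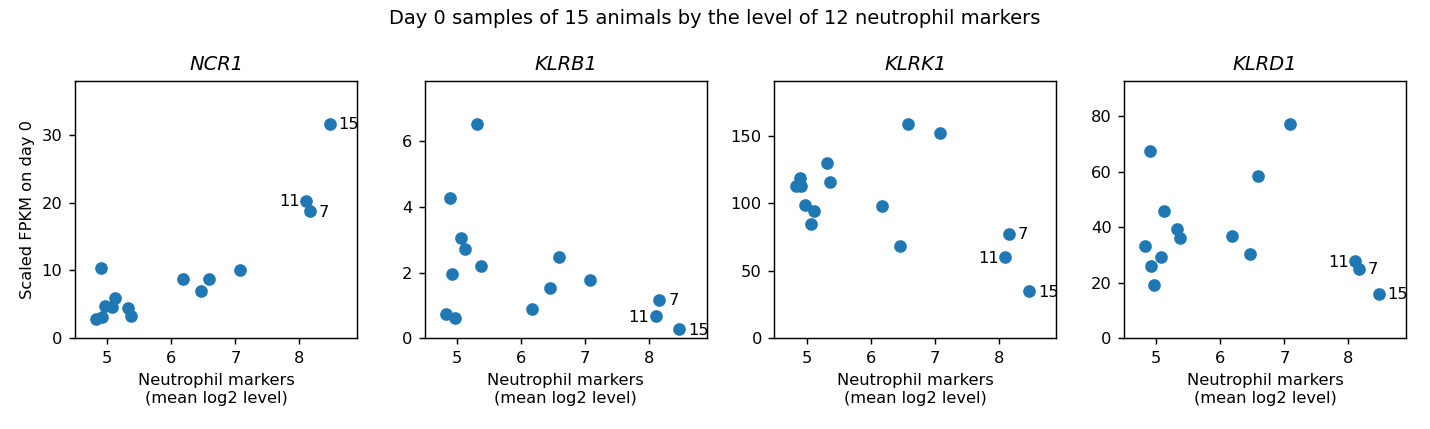
Scaled FPKM of 4 receptor genes on day 0 (y axes, linear from 0) against the mean log2 level of 12 neutrophil markers (x axes), 1 point for each of 15 animals, with the 3 animals of highest marker level numbered. NCR1 reaches 31.6 in animal 15, where KLRB1, KLRK1 and KLRD1 have their lowest day 0 values of 0.27, 34.8 and 16.1. Pearson's r of KLRD1 with the marker level is −0.24.

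Of 17 other NK cell receptor and homing genes tested, 9 rose and 2 fell on day 14 vs. day 0, with a median log2 fold change of 0.36, where 23.2% of all tested genes were called up and 21.1% down. S1PR5, the receptor by which NK cells leave lymphoid tissue, rose from 3.62 ± 1.65 to 9.04 ± 5.01 scaled FPKM (SD, n = 15, log2 fold change 1.22, limma adjusted p = 5.09e-06). SLAMF7 rose from 22.6 ± 6.91 to 38.3 ± 15.1 (log2 fold change 0.72, adjusted p = 4.22e-05). IL18RAP, a subunit of the interleukin-18 receptor, fell from 73.2 ± 82.3 to 10.4 ± 4.88 (log2 fold change −2.04, adjusted p = 2.38e-05), and its day 0 level had an r of 0.97 with the neutrophil markers. KLRC1, the NKG2A partner of KLRD1, rose by 0.82 (adjusted p = 8.43e-05), a value left uncertain because its near-identical paralogs could share reads with it. On day 3, 5 of these 17 genes rose and 1 fell, where 10.3% of all tested genes were called up and 9.3% down.

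Of 11 cytotoxic granule and effector genes tested, 8 rose on day 14 vs. day 0 and none fell, with a median of 1.15, where 23.2% of all tested genes were called up, and 7 rose on day 3, where 10.3% were. Granzyme A (GZMA) went from 11.8 ± 6.93 to 57.9 ± 30.0 scaled FPKM (log2 fold change 2.33, limma adjusted p = 1.1e-07, 15 of 15 animals higher). GZMH rose by 1.51 (adjusted p = 7.96e-07) and NKG7 by 1.04 (1.18e-06). With day means removed, the mean log2 level of this list had an r of 0.83 with KLRD1 and 0.75 with KLRF1 over the 45 samples. It had an r of 0.66 with CD226, 0.55 with KLRK1, 0.43 with KLRG1, 0.38 with KLRB1, 0.28 with NCR1 and −0.17 with NCAM1. FASLG and GZMK belong to the list and are also among the genes most like KLRD1.

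Ligands and signaling partners showed no shared direction on day 14 vs. day 0, and the shares called in these 3 lists lay near those of all tested genes (23.2% up and 21.1% down), so the single genes below are given as values only. Of 9 ligand genes tested, 2 rose and 1 fell, with a median of −0.01. PVRL2 (nectin-2, a CD226 ligand) rose from 0.591 ± 0.32 to 1.86 ± 1.16 scaled FPKM (log2 fold change 1.37, limma adjusted p = 4.1e-06). CLEC2D, the KLRB1 ligand, rose by 0.29 (adjusted p = 0.0334), and NCR3LG1, the ligand of NCR3, fell by 0.48 on the log2 scale (adjusted p = 0.0209). Of 19 adaptors and proximal signaling genes, 6 rose and 5 fell, with a median of −0.13. SH2D1B (EAT-2), an adaptor of SLAM family receptors, rose by 0.93 (adjusted p = 0.000162), while LCP2 (SLP-76) and the kinase subunit PIK3CD fell by 0.74 and 0.57 on the log2 scale (adjusted p = 1.09e-05 and 0.000535). HCST (DAP10), the adaptor through which NKG2D signals, rose by 0.55 (adjusted p = 0.000571) although KLRK1 itself was not called. Of 15 transcription factors of NK cells, 3 rose and 2 fell, with a median of −0.02. TBX21 (T-bet), which drives the mature cytotoxic program, rose by 1.02 (adjusted p = 4.91e-07) and ID2 by 0.68 (3.03e-06), while KLF2, which holds lymphocytes in a resting and circulating state, fell by 0.79 on the log2 scale (1.21e-06) in 15 of 15 animals.

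Markers of other blood cells moved over the same days. On day 14 vs. day 0, 11 of 12 neutrophil markers fell, with a median of −1.30 and summed levels of 1300 to 42600 scaled FPKM on day 0 and 526 to 4270 on day 14. Of 10 monocyte markers 5 fell (median −0.45, sums of 948 to 8620 and 962 to 2700), and of 8 B cell markers 3 fell (median −0.40, sums of 85.5 to 630.0 and 165 to 393). All 11 reticulocyte markers rose (median 2.83, sums of 392 to 20800 and 6720 to 60700), as did 8 of 11 platelet markers (median 0.77, sums of 241 to 4380 and 422 to 3530). Of 12 T cell markers 2 rose and none fell, both below the shares of all tested genes (median −0.06, sums of 403 to 957 and 539 to 891). The 2 were CD3D at 0.61 (limma adjusted p = 0.00153) and CD8A, which NK cells of monkeys also carry, at 0.46 (0.000109). CD8B, carried by T cells but not by most NK cells, stood at −0.09 (0.531). Apart from S100A12 among the neutrophil markers, each of these genes was above 0 in every sample. Taken relative to the mean log2 level of the 12 T cell markers in the same library, the day 14 changes of KLRD1, KLRB1, KLRG1 and KLRF1 were 1.09, 1.09, 0.79 and 1.28, each still called. On day 3 vs. day 0, 7 of 12 neutrophil markers fell (median −0.98, day 3 sums of 545 to 6880), 11 of 11 platelet markers rose (1.52, 634 to 4910) and 9 of 11 reticulocyte markers rose (1.59, 3580 to 38500). Of the T cell markers 1 rose and 3 fell (0.01, 439 to 760), of the monocyte markers 3 rose and 1 fell (0.01, 900.0 to 2870), and no B cell marker was called (0.24, 207 to 553). Of all tested genes, 10.3% were called up and 9.3% down on day 3. The 1 T cell marker up and the 1 monocyte marker down lie near these shares. On day 14 vs. day 3, 14.2% of all tested genes were called up and 9.83% down. Of 11 platelet markers 7 then fell (median −0.87), as did 6 of 10 monocyte markers (−0.45) and 5 of 8 B cell markers (−0.71). Of 11 reticulocyte markers 5 rose (1.09), as did 3 of 12 T cell markers (0.06), and no neutrophil marker was called (−0.32). The part of the other cell types in the receptor changes of the 3 comparisons was not tested. Without the 2 libraries that stood apart, the number of the 8 genes called up was again 2 for day 3, 4 for day 14 and 4 between these days.

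**Figure D5:**
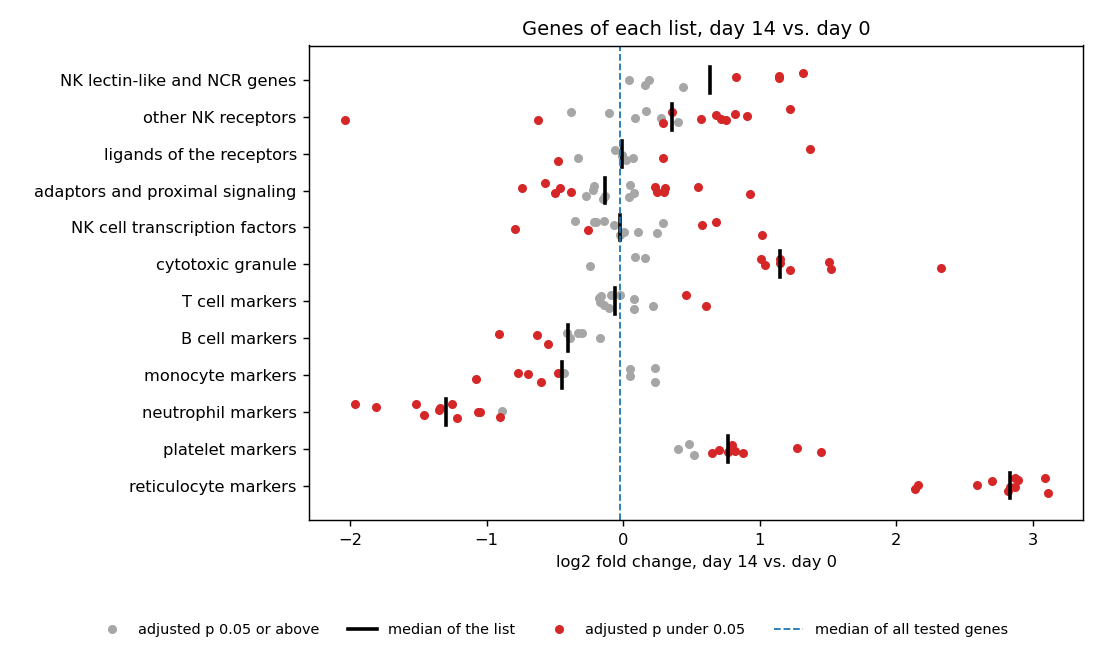
Log2 fold change on day 14 vs. day 0 (x axis) of every tested gene of each list, red where called, with a black bar at the median of the list and a dashed line at the median of all tested genes. The 8 receptor genes have a median of 0.64, the cytotoxic granule genes 1.15, the T cell markers −0.06 and the neutrophil markers −1.30.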

How the data were processed

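Whole blood RNA was collected in PAXgene tubes and made into stranded TruSeq libraries with ribosomal and globin RNA removed. Per the labels and the paper's methods, the authors demultiplexed reads with bcl2fastq 2.17, aligned them with STAR, counted fragments per gene with HTSeq on the vervet genome, and deposited FPKM per gene and sample. The FPKM came in steps of 1 fragment, which gave the fragment numbers and CPM used for the filter. Because FPKM are not counts, they were scaled by TMM, 0.1 was added, and log2 values of all 45 samples were fitted in limma 3.58.1 (R 4.3.3) with trend and with the animal as a block. The fit was also run on simulated data in which few genes changed, as many up as down. That simulation cannot check the scaling where many genes move. Animal numbers in the labels pair the samples: with day means removed, samples of the same animal correlated across genes with a mean r of 0.328 and those of different animals with −0.0231. The genes and lists were chosen with earlier results of these data known. All receptor genes are named, and of the other NK receptor, ligand, adaptor, transcription factor, granule and T cell lists up to 3 genes of lowest adjusted p on day 14 vs. day 0, with KLRC1, HCST, CD8B and GZMK added after their values were seen. The genes most like a receptor are the 3 named genes of highest r with a mean of at least 5 CPM. KLRK1 and TRAT1 were matched by gene ID through a RefSeq table of another assembly, used for names and gene order only. Listed genes without a tested row, and 1 further listed gene, are not analysed here. Day 14 is called day 15 in the series' design text. RNA integrity numbers from the study served as a covariate in an alternative fit. Alternatives covered scaling, the pseudocount, the filter, voom on recovered fragments, the block and left-out animals. The 2 libraries with over 30000 genes above 0 and the T cell marker scaling were added after seeing the data.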

Additional observations from a re-analysis of the deposited data

How the results depend on the processing

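The count of 4 receptor genes called on day 14 vs. day 0 was 4 under each alternative other than no TMM scaling, where it was 5 with CD226 called down, and 4 to 5 with single animals left out. On day 3 vs. day 0 the 2 calls became 0 with no replicate block, 0 without TMM scaling, 0 with an RNA integrity covariate beside the block and 1 with no filter, 3 with a stricter filter or relative to T cell markers, and 0 to 3 without each animal in turn. On day 14 vs. day 3 the 4 calls became 2 with no replicate block, 2 without TMM scaling (KLRB1 up and CD226 down), 3 with the RNA integrity covariate, where KLRG1 had an adjusted p of 0.0586, and 3 to 4 without each animal. The paired design changed no other call. Without TMM scaling KLRK1 stood at −0.036 for day 3 and −0.233 for day 14 against day 0, and at −0.197 for day 14 against day 3. In the same order NCAM1 stood at −0.030, −0.089 and −0.059. CD226 reached −0.381 in the second of these comparisons and NCR1 −0.151 in the last. On day 3 vs. day 0 KLRK1 was −0.009 with median-of-ratios scaling and −0.033 with the RNA integrity covariate, and NCAM1 was −0.007 with median-of-ratios scaling, −0.006 with a pseudocount of 0.01 and −0.004 with voom. On day 14 vs. day 0 CD226 was −0.039 with the RNA integrity covariate and −0.006 relative to T cell markers. With an animal left out, day 3 changes ranged from −0.062 to 0.069 for KLRK1 and from −0.084 to 0.045 for NCAM1, and CD226 from −0.064 to 0.006 on day 14 vs. day 3. Over all genes, the 3673, 8300 and 4505 calls of the 3 comparisons in this order became 2337, 6756 and 2543 with no replicate block, 2465, 11075 and 9591 without TMM scaling, and 2890, 4148 and 1900 with the RNA integrity covariate. The T cell marker scaling moved the split of calls to 1490 up and 540 down for day 3 against day 0 (1929 and 1744 without it), to 3291 up and 3592 down for day 14 against day 0 (4343 and 3957 without it) and to 1511 up and 1932 down for day 14 against day 3 (2662 and 1843 without it). The cause of these shifts was not tested. KLRB1 and NCAM1 rest on as few as 6 and 5 fragments in a sample, which limits the precision of their values.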
